A study of Mus musculus with 12 samples.

Results

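The tubulin folding cofactors are a family of 7 genes, Tbca, Tbcb, Tbcc, Tbcd, Tbce, Tbcel and Arl2, chosen by symbol from the 43279 genes of the deposited table. All 7 were found, and all 7 reached a normalised count of 10 or more in 5 or more libraries, the filter on low values, as did 13358 genes in all. They were read in hematopoietic stem cells of adult naive Osmr-/- mice, with 5 libraries, and of wild-type C57BL/6 mice, with 6 libraries. Both genotypes gave 1000 bone-marrow cells per mouse sorted as Lin-, FLT3- and CD48- with KIT and SCA1 on the surface, and each library came from its own mouse. Osmr encodes the oncostatin M receptor chain, and the labels give its loss as Osmr-/- without naming the allele or a Cre driver. The gate takes in stem cells of long-term and short-term activity alike, and the comparison asks how loss of OSMR signalling affects them. Fewer cells of a type and less RNA per cell cannot be told apart in such bulk libraries.

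Alpha- and beta-tubulin cannot fold alone. Newly made chains pass from the prefoldin complex to the CCT chaperonin and then to the cofactors. TBCA holds beta-tubulin and TBCB holds alpha-tubulin. TBCD takes over the beta chain and TBCE the alpha chain, and both meet in one complex. TBCC binds that complex and stimulates GTP hydrolysis by the beta chain, which releases the finished dimer. ARL2 is a small GTPase that binds TBCD, and TBCEL is a TBCE-like protein known for promoting the loss of tubulin. The dimers build the spindle and the microtubule tracks of every dividing cell, stem cells included.

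The Osmr-/- libraries held 9500968 to 11193108 reads on genes, and the WT libraries 9886151 to 22144976. Osmr itself had 4 reads over the Osmr-/- libraries and 13 over the WT libraries, too few to check the genotype labels. The stem cell genes Kit, Ly6a, Mecom and Hlf each had mean normalised counts above 1000 in both genotypes. Their list of 10 summed to 25920 to 38120 in Osmr-/- and 24770 to 34520 in WT, but its genes shifted both ways. Slamf1 averaged 138.5 in Osmr-/- and 296.7 in WT, and Procr 322.7 in Osmr-/- and 542.5 in WT. Meis1 was higher, with 4267 to 5140 in Osmr-/- and 2778 to 4200 in WT. The T cell gene Cd3e and the neutrophil gene Ly6g had means under 1 in both. Transcript for both gate-negative surface proteins was present, with Flt3 at a mean of 389 in Osmr-/- and 504 in WT, and Cd48 at a mean of 853 in Osmr-/- and 637 in WT.

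Tbcc was the member set furthest apart between the genotypes, and its difference drew attention to the family. The genotype values of all 7 members are therefore a description, with no test. Tbcc had normalised counts (reads divided by the library's size factor) of 166.5, 230.6, 112.1, 174.0 and 37.08 in Osmr-/- libraries 1, 2, 3, 5 and 6. In WT libraries 1 to 6 it had 842.6, 588.4, 425.1, 728.8, 816.2 and 445.8. Every Osmr-/- library lay below every WT library, with Osmr-/- 6 the lowest of all. The means were 144 ± 73.1 in Osmr-/- (SD, n = 5) and 641 ± 182 in WT (SD, n = 6). On the log2(normalised count + 1) scale the difference was -2.32, with a standard error of 0.419. Tbcc was the only 1 of the 7 members without overlap, beside 1.42% of all tested genes that lay lower in this way 1.09% that lay higher and 2.52% in either direction. The authors' deposited table gives it a log2 difference of -1.83 once its sign is turned to Osmr-/- over WT.

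**Figure D1:**
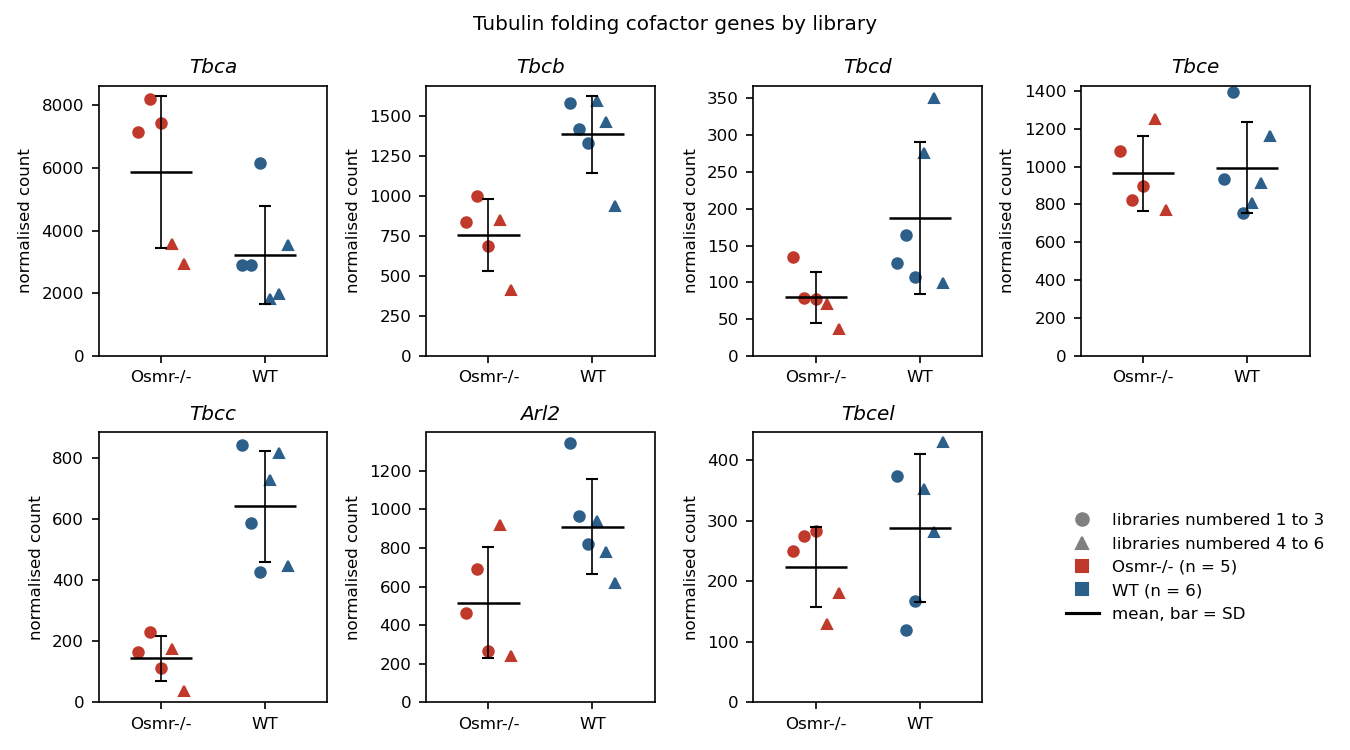
Normalised count of each cofactor gene in each library (linear axis from 0), Osmr-/- left and WT right. Circles are libraries numbered 1 to 3, triangles those numbered 4 to 6, the line is the mean and the bar the SD. Tbcc lies between 37.08 and 230.6 in Osmr-/- and between 425.1 and 842.6 in WT, and the other 6 genes overlap.

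Tbcc is a gene of 1 exon in GENCODE M21 (GRCm38, which is mm10), on chromosome 17 from 46890684 to 46891847 on the plus strand. No gene of the table overlaps it. The tested genes nearest to it on either side were Rpl7l1, 108 kb away, and Ubr2, 36.4 kb away. Rpl7l1, a ribosomal-protein-like gene, averaged 1545 ± 345 in Osmr-/- (SD, n = 5) and 2694 ± 1183 in WT (SD, n = 6), with an adjusted p of 0.232 in limma. Ubr2, a ubiquitin ligase gene, averaged 774 ± 95.4 in Osmr-/- (SD, n = 5) and 755 ± 251 in WT (SD, n = 6), with an adjusted p of 0.879 in limma. The closer gene Prph2, 18.6 kb away, was at 0 in Osmr-/- and averaged 0.14 in WT.

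The 250 bases before the RefSeq start (GRCm38.p6) were searched on both strands for 5 motifs. One was the CCAAT box, named for its letters. The GC box, bound by SP1-type factors, was searched as GGGCGG. The cAMP response element, bound by CREB-type factors, was searched as TGACGTCA. The TATA box was searched as TATAAA, and the E-box, bound by helix-loop-helix factors, was searched as CACGTG. No matches overlapped. The promoter of Tbcc is shown as that of the member set furthest apart. That of Tbca is shown as the member higher in Osmr-/-, and that of Tbce as the member whose level differed least. Capitals mark the matches, which read as the reverse complement where the motif lies on the other strand. The windows are the 250 bases for Tbcc and Tbce and, for Tbca, the 240 that also lie before the GENCODE start. They are chr17:46890371-46890620 on the plus strand, chr13:94788670-94788909 on the plus strand and chr13:14039639-14039888 on the minus strand.
Tbcc: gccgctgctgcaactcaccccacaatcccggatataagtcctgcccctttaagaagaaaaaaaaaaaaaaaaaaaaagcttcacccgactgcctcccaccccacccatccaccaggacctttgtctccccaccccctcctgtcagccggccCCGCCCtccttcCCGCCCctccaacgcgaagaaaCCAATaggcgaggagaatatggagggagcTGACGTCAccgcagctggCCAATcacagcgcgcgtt
Tbca: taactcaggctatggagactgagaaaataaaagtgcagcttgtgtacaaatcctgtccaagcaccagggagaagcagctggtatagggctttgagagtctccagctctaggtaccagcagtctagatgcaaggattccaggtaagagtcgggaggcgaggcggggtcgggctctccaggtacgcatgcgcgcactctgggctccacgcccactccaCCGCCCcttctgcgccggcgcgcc
Tbce: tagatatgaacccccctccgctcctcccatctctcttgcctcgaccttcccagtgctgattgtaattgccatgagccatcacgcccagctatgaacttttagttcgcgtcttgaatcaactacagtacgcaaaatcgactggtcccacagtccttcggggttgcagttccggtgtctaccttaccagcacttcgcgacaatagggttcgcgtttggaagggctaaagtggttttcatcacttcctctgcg

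The Tbcc window held 2 CCAAT boxes, 2 GC boxes and 1 cAMP response element, which begins 36 bases before the start. Of 27025 promoters of the same length, 34.5% held a CCAAT box, 32.9% a GC box and 1.62% the cAMP response element. The Tbca window held 1 GC box, and the Tbce window held none of the 5 motifs. Of the other members, Tbcb held 2 GC boxes, Tbcd 1 CCAAT box and 1 GC box, and Arl2 1 CCAAT box, 1 GC box and 1 E-box. Tbcel has 3 RefSeq starts, and the first held 1 CCAAT box and 2 E-boxes. Of the 250 bases searched, 208 lay before the GENCODE start for Tbcd and 0 for Tbcb, Arl2 and Tbcel. The windows of Tbcb, Arl2 and Tbcel thus lie within the annotated gene, unlike those of Tbcc and Tbce. A match is a stretch of letters, not a bound site.

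On the alpha-tubulin arm, Tbcb was lower in Osmr-/- and Tbce was at about the same level. Tbcb had 838.2, 1004, 688.2, 853.4 and 409.8 normalised counts in Osmr-/- 1, 2, 3, 5 and 6, against 1581, 1418, 1333, 1594, 1461 and 940.1 in WT 1 to 6. The groups met only where Osmr-/- 2 exceeded WT 6. The means were 759 ± 225 in Osmr-/- (SD, n = 5) and 1388 ± 241 in WT (SD, n = 6), a log2 difference of -0.91 with a standard error of 0.25. Tbce, the gene mutated in the motor neuron disease mouse pmn, had 1084, 821.8, 897.0, 1249 and 772.9 in the same Osmr-/- libraries. It had 932.0, 1393, 755.6, 806.4, 914.1 and 1160 in WT, so the groups covered nearly the same range. Its log2 difference was -0.03, with a 95% interval of -0.51 to 0.45.

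On the beta-tubulin arm the members went opposite ways. Tbca had 7142, 8216, 7448, 3582 and 2921 normalised counts in Osmr-/- 1, 2, 3, 5 and 6, against 2908, 2911, 6154, 1814, 1987 and 3528 in WT 1 to 6. The 3 highest libraries were Osmr-/- 1, 2 and 3, and WT 3 came next. The means were 5862 ± 2426 in Osmr-/- (SD, n = 5) and 3217 ± 1575 in WT (SD, n = 6), a log2 difference of 0.87 with a standard error of 0.344. Tbca was the only member above 0, beside 6 below.

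Tbcd, the large scaffold of the complex, was the least abundant member. It had 134.8, 78.04, 77.33, 70.0 and 37.08 in the Osmr-/- libraries and 126.8, 164.8, 106.8, 275.5, 351.1 and 99.29 in WT. WT 4 and 5 stood well above the rest, and Osmr-/- 1 lay above 3 of the WT libraries. The log2 difference was -1.17 with a standard error of 0.461, from means of 79.5 ± 35.2 in Osmr-/- (SD, n = 5) and 187 ± 103 in WT (SD, n = 6).

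Arl2, the GTPase partner of TBCD, had 465.6, 689.4, 265.5, 917.3 and 243.0 normalised counts in Osmr-/- 1, 2, 3, 5 and 6. In WT 1 to 6 it had 1343, 965.0, 822.1, 939.9, 781.9 and 617.4. Osmr-/- 2 and 5 reached into the WT range, and the other 3 lay below it. The log2 difference was -0.97 with a standard error of 0.344, from means of 516 ± 288 in Osmr-/- (SD, n = 5) and 912 ± 245 in WT (SD, n = 6). Tbcel had 128.7 to 282.3 in Osmr-/- with a median of 250.3, against 119.4 to 430.2 in WT with a median of 316.9. Its log2 difference of -0.29 had a 95% interval of -1.10 to 0.53.

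Over the 7 members the median log2 difference was -0.91, against -0.05 over all 13358 tested genes, of which 53.2% lay below 0. The member median is a description too, since the family was picked with the Tbcc difference known. In the authors' deposited table the other 6, with the sign turned, had -0.81 for Tbcb, -1.02 for Tbcd, -0.71 for Arl2, -0.32 for Tbcel, -0.04 for Tbce and 0.75 for Tbca. The gene spans of 5 members, introns included, overlap a gene on the opposite strand that the table also lists. How much of each overlap is exon was not measured. The labels do not state whether counting used strand, so reads in the shared stretch cannot be told apart. The pairs are Tbcb with Polr2i over 325 bases, Tbce with B3galnt2 over 1155, Arl2 with Batf2 over 566, Tbcd with Zfp750 and B3gntl1, and Tbcel with Gm16322. Polr2i averaged 1551 in Osmr-/- and 1149 in WT, the other direction from Tbcb. B3galnt2 averaged 1019 in Osmr-/- and 1021 in WT, and Batf2 34.6 in Osmr-/- and 84.1 in WT. Zfp750 averaged 9.02 in Osmr-/- and 0.129 in WT, B3gntl1 116 in Osmr-/- and 138 in WT, and Gm16322 had 0 in both.

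**Figure D2:**
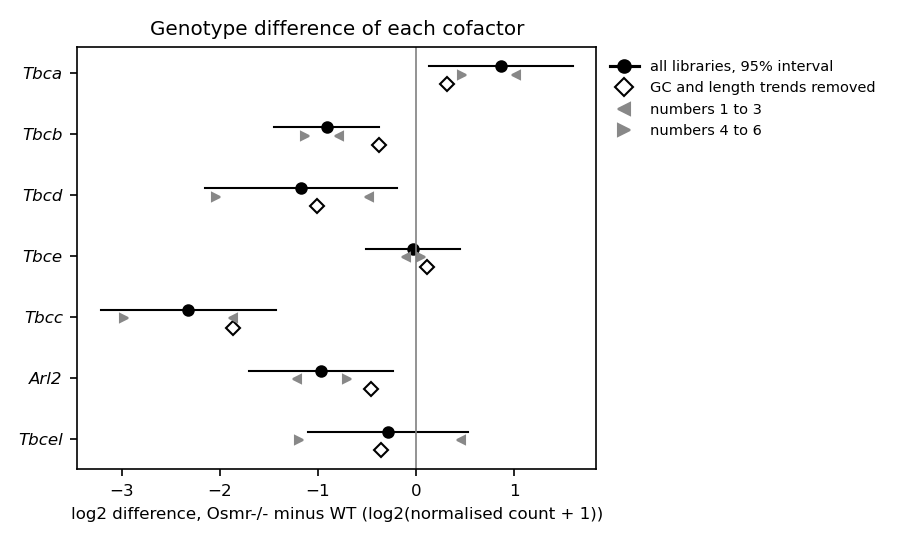
Log2 difference (Osmr-/- minus WT) of each cofactor. Filled circles with bars are the fit over all 11 libraries with its 95% interval, grey triangles the libraries numbered 1 to 3 and 4 to 6 alone, open diamonds the fit after GC and length trends were removed. Tbcc lies furthest from 0 in each, and Tbcel and Tbce change sign between the number sets.

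Per kilobase of annotated exon, the order of the members also differed between the genotypes. In Osmr-/- the levels were 7228 ± 2992 normalised counts per kb for Tbca, 526 ± 156 for Tbcb, 213 ± 43.6 for Tbce and 149 ± 83.2 for Arl2 (SD, n = 5). Tbcc followed at 124 ± 62.8, Tbcel at 26.3 ± 7.82 and Tbcd at 9.81 ± 4.35. In WT the order was Tbca at 3967 ± 1942, Tbcb at 963 ± 167, Tbcc at 551 ± 157 and Arl2 at 264 ± 71.0 (SD, n = 6). Tbce stood at 219 ± 53.0, Tbcel at 33.9 ± 14.4 and Tbcd at 23.2 ± 12.7. Tbcc thus held the third place in WT and the fifth in Osmr-/-. Within single libraries, Tbce was above Arl2 in 4 of 5 Osmr-/- libraries and Arl2 above Tbcc in 3 of 5, so those neighbours had no fixed order. Each of the other neighbours kept its order in 5 of 5, although the ranges of Tbcc and Tbcel, and of Tbcel and Tbcd, overlapped between libraries. In WT, Arl2 was above Tbce in 4 of 6 libraries and Tbcel above Tbcd in 4 of 6, while the other neighbours kept their order in 6 of 6. Exon lengths here cover all annotated isoforms, which lowers the per-kb level of genes with many, such as Tbcd and Tbcel.

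Tbcb and Tbcc varied together from library to library. Both had the same order among the Osmr-/- libraries, with 6 lowest, then 3, 1, 5 and 2. In WT, libraries 3 and 6 were the lowest for both genes, then library 2, and libraries 1, 4 and 5 were the highest. Among 10746 other genes whose mean normalised count reached 50, Tbcb was number 1 in likeness to Tbcc, with a Pearson r of 0.971 on the log2 scale and a Spearman rho of 0.945 over 11 libraries. That r includes the genotype difference of both genes. With each genotype's mean subtracted, Tbcb was number 3, with an r of 0.934 and a rho of 0.918. Arl2 followed at 0.853 and number 161, or 0.760 and number 240 with means subtracted, and Tbcd at 0.831 and number 209, or 0.665 and number 481. Tbcel had 0.311, Tbce 0.174 and Tbca -0.435. These are descriptions, since both genes of a pair are read from the same libraries, which differ in depth and in base composition.

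**Figure D3:**
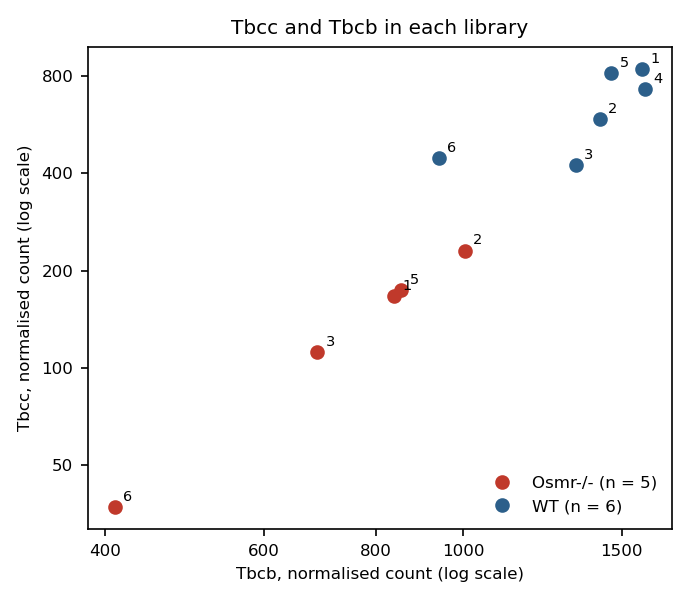
Tbcc against Tbcb in each library, both as normalised counts on log axes, with the library number beside each point. Osmr-/- libraries run from 37.08 to 230.6 for Tbcc and from 409.8 to 1004 for Tbcb in one order. WT 6, at 940.1 for Tbcb, is the WT library inside the Osmr-/- range of Tbcb.

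Outside the family, the genes most like Tbcc over all libraries were Cmas, which encodes the enzyme that activates sialic acid, at an r of 0.958, and the mitochondrial ribosomal gene Mrpl2 at 0.953. A430005L14Rik followed at 0.952, the N-terminal acetyltransferase gene Naa10 at 0.950 and Zcchc17, a zinc finger gene, at 0.950. With genotype means subtracted they were the peroxiredoxin gene Prdx5 at 0.942, Apitd1, which encodes a centromere protein, at 0.942, the ribosomal protein gene Rps3 at 0.928, 3110040N11Rik at 0.925 and Etfb, of the electron transfer flavoprotein, at 0.924. Rps3 has many pseudogenes, so its reads are uncertain. Cmas averaged 767 ± 305 in Osmr-/- (SD, n = 5) and 1982 ± 400 in WT (SD, n = 6).

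Over the tested genes, the genotype difference changed with transcript GC content, and the members ran in nearly the same order. The longest coding transcript of Tbcc is 61.3% G and C, higher than 98.1% of the tested genes that have a value. Arl2 has 59.1%, Tbcb 56%, Tbcd 53.2%, Tbcel 48.4%, Tbce 44.1% and Tbca 42.2%, so the 4 members of highest GC were those furthest below 0 and the member of lowest GC was the one above it. Over 12558 tested genes the median log2 difference was 0.35 at a GC content under 40%, 0.15 at 40 to 45%, -0.03 at 45 to 50%, -0.23 at 50 to 55% and -0.32 at 55 to 60%. In the class from 60% up, which holds Tbcc, it was -0.31. Within each library, the log2 level centred per gene was regressed on GC content. The slope per 10 points of GC was -0.239 to -0.1 in the Osmr-/- libraries and -0.0862 to 0.408 in the WT libraries, with means of -0.177 ± 0.0523 (SD, n = 5) and 0.148 ± 0.197 (SD, n = 6). An exact two-sided permutation test over the 462 splits gave p = 0.00866.

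With each library's GC and length trends removed, a setting chosen after the data were seen, the Tbcc difference was -1.86 with a standard error of 0.344. Tbcd stood at -1.01, Arl2 at -0.46, Tbcb at -0.37, Tbcel at -0.36, Tbce at 0.12 and Tbca at 0.31. Tbcc remained the member furthest from 0, and Tbce changed sign.

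**Figure D4:**
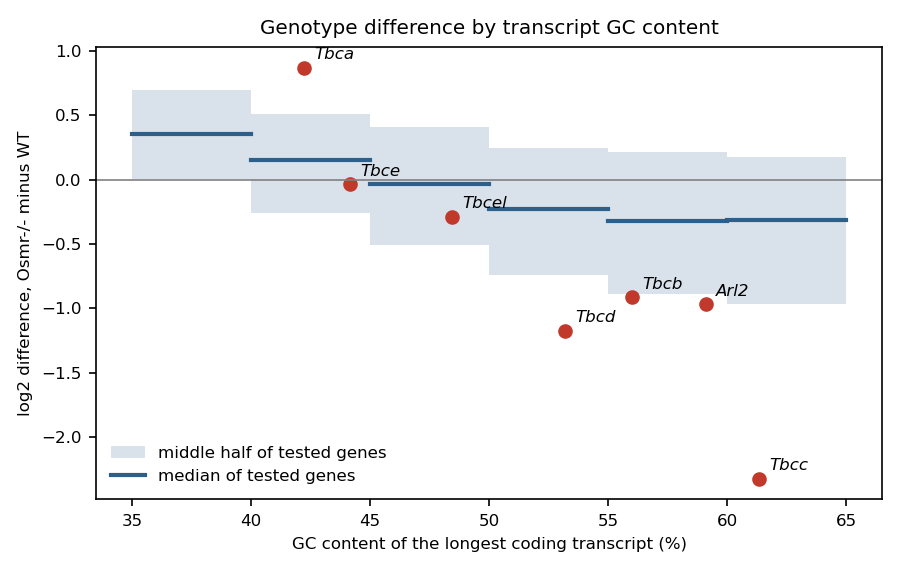
Log2 difference (Osmr-/- minus WT) against transcript GC content. Blue lines are medians and shaded boxes the interquartile range of all tested genes per GC class (the classes under 40% and from 60% up are drawn as 35 to 40 and 60 to 65), and points are the 7 members. The median falls along the GC axis to -0.32 at 55 to 60%, and Tbcc at 61.3% GC lies at -2.32.

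Libraries numbered 1 to 3 and 4 to 6 are known from earlier results of these same data to separate in both genotypes, although the labels give no batch. A p-value or share of genes between the sets is therefore no independent evidence of a split. Between these sets, with genotype in the model, Tbca was lower in numbers 4 to 6 by a log2 difference of -0.92 (limma adjusted p = 0.0352), beside 7.29% of all tested genes that passed. In numbers 1 to 3 Tbca averaged 7602 in Osmr-/- and 3991 in WT, and in numbers 4 to 6 it averaged 3251 in Osmr-/- and 2443 in WT. The other 6 members had adjusted p-values of 0.447 to 1 in the same limma fit. Within numbers 1 to 3 alone the Osmr-/- minus WT difference was -1.86 for Tbcc, -1.21 for Arl2, -0.79 for Tbcb, -0.48 for Tbcd, -0.10 for Tbce, 0.46 for Tbcel and 1.02 for Tbca. Within numbers 4 to 6 it was -2.98 for Tbcc, -0.70 for Arl2, -1.13 for Tbcb, -2.04 for Tbcd, 0.05 for Tbce, -1.19 for Tbcel and 0.47 for Tbca. The change of the genotype difference between the sets did not pass for any member, with the lowest p for Tbcel at 0.0251 unadjusted and 0.450 adjusted in limma. Of all genes tested, 0 passed that limma test.

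Markers of red cell precursors were mostly lower in Osmr-/-, but their sum did not pass after adjustment. The 15 erythroid markers summed to 14130, 19140, 13660, 14630 and 13030 normalised counts in Osmr-/- 1, 2, 3, 5 and 6, against 54590, 53680, 58530, 18320, 20210 and 21290 in WT 1 to 6. WT 1, 2 and 3 stood far above all others, and Osmr-/- 2 reached above WT 4. The exact two-sided permutation p was 0.0455, and 0.137 adjusted over the 6 marker lists. The sum rests mostly on Car2, with means of 11420 in Osmr-/- and 26490 in WT. Car1 came next, at 1284 in Osmr-/- and 8168 in WT. The beta-globin gene Hbb-bt went the other way without overlap, with 707 to 1567 in Osmr-/- and 150 to 697 in WT. Slc4a1 and Alas2, markers of late red cell precursors, had means under 5 in both genotypes. The 9 granulocyte markers summed to 5997, 5384, 29110, 4689 and 5350 in the same Osmr-/- libraries, against 3934, 3543, 5510, 3560, 3412 and 4593 in WT. Osmr-/- 3 stood far above all others, with a median of 5384 in Osmr-/- and 3747 in WT. The exact permutation p was 0.013, 0.078 adjusted over the lists, and the difference of the mean sums was 6015, or 1263 without Osmr-/- 3 (exact permutation p = 0.0429). Outside Osmr-/- 3 most of the sum was 1 gene, Prtn3, which averaged 4831 over all Osmr-/- libraries and 3861 in WT. Mpo went the other way, with means of 18.85 in Osmr-/- and 53.17 in WT, and Ctsg had no read. The part of the erythroid and granulocyte markers in the cofactor values was not tested.

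The genes that act with the cofactors were taken from 6 lists of 79 genes, of which 77 were in the table and 60 were tested. By limma with p adjusted over all tested genes, 0 of the 60 passed in either direction, beside 0.00749% of all tested genes higher, 0.015% lower and 0.0225% in either direction. At an unadjusted p under 0.05 13 lay lower and 3 higher in Osmr-/-, beside 10.5% lower and 7.5% higher of all tested genes. With edgeR 0 passed, beside 0.00749% of its genes higher, 0.00749% lower and 0.015% in either direction. With DESeq2 7 passed lower and 1 higher, beside 4.23% lower, 2.09% higher and 6.32% in either direction of 7913 genes with an adjusted p. The 7 were Tuba1c, Tuba4a, Cct5, Cct6a, Cct7, Pdrg1 and Unc119, and the 1 higher was Pfdn4. Some of the 60, Tuba1a and Tubb6 among them, had no adjusted p in DESeq2. When limma took the number set as a covariate, 4 passed lower (Tuba4a, Cct6a, Pdrg1 and Unc119) and 1 higher (Uri1), beside 1.53% lower, 0.996% higher and 2.52% in either direction. The median over the 60 was -0.29, with 42 below 0 and 18 above. Without overlap between the genotypes, 3 of the 60 lay lower and 1 higher. Of all tested genes, 1.42% lay lower in this way, 1.09% higher and 2.52% in either direction.

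The tubulin genes themselves all lay below 0. Of 16 listed alpha and beta tubulins 8 were tested, with a median log2 difference of -1.06. By limma 5 were lower at an unadjusted p under 0.05, beside 10.5% lower of all tested genes. Tuba4a, the alpha-tubulin of highest mean count among those tested, had 1650, 1484, 1489, 1320 and 916.3 in Osmr-/- 1, 2, 3, 5 and 6, against 3359, 3141, 3045, 2438, 1897 and 1203 in WT 1 to 6. WT 6 alone lay inside the Osmr-/- range. Its log2 difference was -0.82 ± 0.274 (SE), with an adjusted p of 0.156 in limma and 0.0401 with that covariate, within 0.0401 to 0.495 over the alternatives. Tuba1c had -1.30 ± 0.414 (SE) and an adjusted p of 0.144 in limma. Tubb5, the tubulin of highest mean count, averaged 4214 ± 1763 in Osmr-/- (SD, n = 5) and 4473 ± 1199 in WT (SD, n = 6), with a log2 difference of -0.13 and a 95% interval of -0.71 to 0.44. Tubulin genes are close in sequence, which leaves the reads of any single one uncertain.

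All 9 listed subunits of the CCT chaperonin, which folds tubulin before the cofactors take it, were tested, and 8 lay below 0 with a median of -0.26. Cct6a had 1031, 1229, 1031, 1234 and 1377 in Osmr-/- and 2994, 2431, 1741, 2873, 2123 and 2010 in WT, with every Osmr-/- library below every WT library. Its log2 difference was -0.98 ± 0.201 (SE), with an adjusted p of 0.0656 in limma. In limma it was 0.0329 with the covariate, 0.0452 with GC and length trends removed and 0.0403 without WT 6, within 0.00109 to 0.388 over the alternatives. Cct5, the subunit of highest mean, had -0.78 ± 0.252 (SE) with an adjusted p of 0.149 in limma. Cct4 averaged 4700 ± 713 in Osmr-/- (SD, n = 5) and 5425 ± 700 in WT (SD, n = 6), a log2 difference of -0.21 with a 95% interval of -0.60 to 0.18. Whether the subunits differ from each other was not tested.

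Prefoldin and phosducin-like genes, whose products bring chains to CCT or act with it, lay on both sides of 0, with 7 of 11 above and a median of 0.14. Pdrg1, of the prefoldin-like complex, had 1441, 1406, 693.4, 1040 and 613.8 in Osmr-/- and 2618, 2393, 2242, 1832, 1760 and 1502 in WT. Uri1, of the same complex, had 1280, 1204, 1565, 1225 and 1543 in Osmr-/- and 622.2, 527.9, 720.3, 1127, 943.4 and 1026 in WT. Neither gene overlapped between the genotypes, and they went opposite ways. Their log2 differences were -1.05 ± 0.262 (SE) and 0.76 ± 0.235 (SE), with adjusted p-values of 0.0967 and 0.138 in limma. The prefoldin subunit genes of highest mean, Pfdn5 and Vbp1, had log2 differences of 0.14 and 0.06. Vbp1, however, averaged 4166 in Osmr-/- and 4348 in WT, and was below 0 with edgeR and DESeq2. Pfdn4, another subunit gene, averaged 3214 ± 1426 in Osmr-/- (SD, n = 5) and 1428 ± 843 in WT (SD, n = 6), with overlap. Its log2 difference was 1.23 ± 0.394 (SE), with an adjusted p of 0.146 in limma and 0.0444 in DESeq2.

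**Figure D5:**
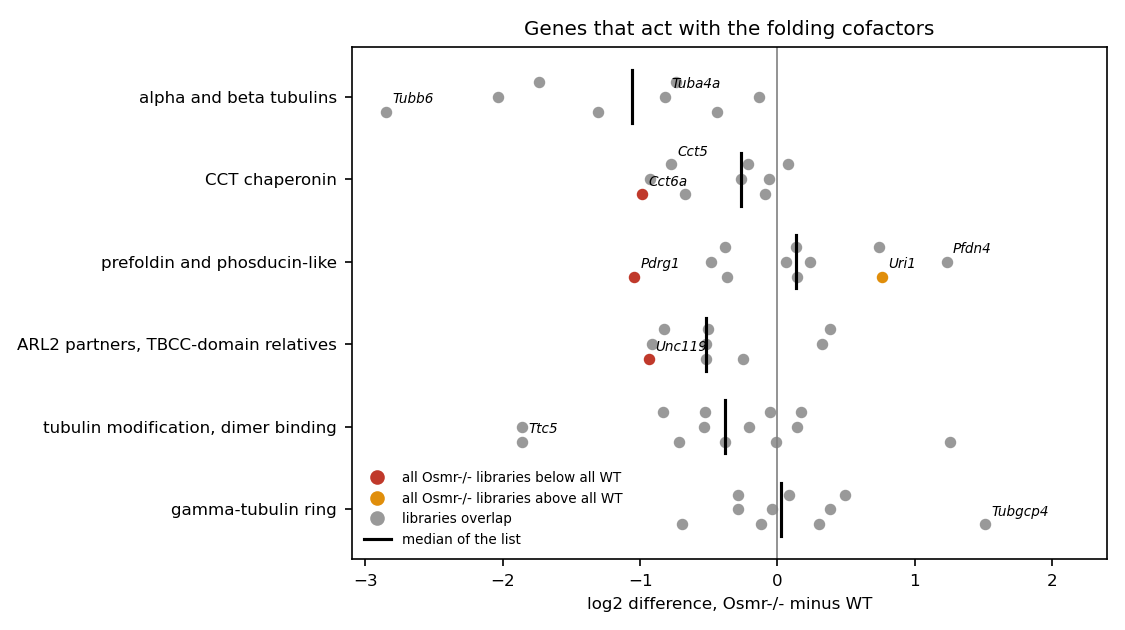
Log2 difference (Osmr-/- minus WT) of the 60 tested genes that act with the cofactors, by list, with each list's median as a black line. Red and orange points are genes whose Osmr-/- libraries all lie below or all above the WT libraries. These are Cct6a, Pdrg1 and Unc119 below and Uri1 above, beside 1.42% of all tested genes below and 1.09% above. The tubulins have the lowest median at -1.06.

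Among partners of ARL2 and relatives of TBCC, 7 of 9 tested genes lay below 0, with a median of -0.52. Unc119, a lipid-binding carrier that binds ARL2 and ARL3, had 606, 605.4, 449.8, 281 and 347.4 in Osmr-/- and 1136, 815.4, 698.1, 669, 849.5 and 948.4 in WT. The groups did not overlap, and the log2 difference was -0.94 ± 0.26 (SE) with an adjusted p of 0.117 in limma. In limma it was 0.0432 with the covariate and 0.463 with GC and length trends removed, within 0.0346 to 0.463 over the alternatives. Its relative Unc119b had -0.91 ± 0.453 (SE). Pde6d and Arl3 had -0.52 ± 0.299 (SE) and -0.52 ± 0.341 (SE). The adjusted p-values of these 3 genes were 0.304, 0.378 and 0.442 in limma.

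In the list of tubulin modification and dimer binding, 10 of 13 tested genes lay below 0, with a median of -0.39. Ttc5, which reads nascent tubulin chains and triggers decay of their mRNA, averaged 163 ± 154 in Osmr-/- (SD, n = 5) and 391 ± 211 in WT (SD, n = 6). Its adjusted p was 0.203 in limma, and the difference was 0.08 in numbers 4 to 6 alone. Stmn1, which sequesters tubulin dimers, averaged 11050 ± 4743 in Osmr-/- and 16730 ± 4277 in WT, with an adjusted p of 0.287 in limma. The plus-end gene Mapre1 had -0.39 ± 0.253 (SE). In the gamma-tubulin ring list, which nucleates microtubules, 5 of 10 lay on each side of 0. Tubgcp4 averaged 1339 ± 325 in Osmr-/- and 611 ± 397 in WT, with an adjusted p of 0.177 in limma. Mzt2 had -0.70 ± 0.27 (SE) with an adjusted p of 0.203 in limma, while Mzt1 had -0.04 and Ckap5 -0.29.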

How the data were processed

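The submitters' processing notes name Trimmomatic 0.36.6, FastQC 0.72, HISAT2 2.1.0, HTSeq 0.9.1 and DESeq2 2.11.40.6, with the build mm10. Per the labels, the SMART-Seq v4 kit gave the cDNA and Nextera XT the libraries. The authors deposited an expression signal, the gene counts divided by each library's size factor, and log2 values from DESeq2's regularised logarithm. The authors also deposited a comparison without a header, whose columns were read from their values as mean signal, log2 fold change, standard error and Wald statistic (each a score per gene), p-value and adjusted p-value. All 615 genes at an adjusted p under 0.05 there have the sign of WT minus Osmr-/-.

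The deposited normalised counts leave out the Osmr-/- sample numbered 4, so it was not analysed here. All values of each library were whole multiples of 1 step, to within 1.4e-09, which gave back whole read counts. DESeq2 size factors recomputed from those reads matched the steps in all 11 libraries.

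Log2(normalised count + 1) was fitted on genotype with limma 3.58.1 (eBayes with trend, R 4.3.3), with two-sided p adjusted by Benjamini-Hochberg over 13358 genes and 0.05 as the threshold. edgeR 4.0.16 and DESeq2 1.42.0 were run on the recovered reads. DESeq2's own filter left 7913 genes with an adjusted p. p-values measure spread between mice, with 1 library each. Label numbers did not pair the libraries.

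The members and lists were chosen with earlier results of these data known. Genes named are the 7 members, Osmr, in each pathway list the 2 of lowest p and the 2 of highest mean, the 5 most like Tbcc by each measure, and the neighbours of Tbcc. Pathway genes that passed with DESeq2 are also named. The markers shown were chosen after their values were seen. Positions, lengths and GC contents are from GENCODE M21, and promoters from RefSeq, matched for 7 of 7 members.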

Additional observations from a re-analysis of the deposited data

How the results depend on the processing

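Members kept the direction of their genotype difference in the alternatives run, except Tbce and Tbcel. Tbcc was -1.49 on the authors' regularised log values. Tbcb was -0.37 with GC and length trends removed, Tbcd -2.04 in numbers 4 to 6 alone, and Tbcel 0.46 in numbers 1 to 3 and -1.19 in numbers 4 to 6. Leaving out 1 library at a time, Tbcc ran from -2.55 to -1.90. The cause of these shifts was not tested.

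By limma 1 gene of the whole table passed higher in Osmr-/- and 2 lower, with 0 pathway genes. A pseudocount of 0.5 gave 1 lower, and one of 10 gave 13 higher and 42 lower, with 1 pathway gene lower. With no filter, with a filter at 50, and in numbers 1 to 3 or 4 to 6 alone, 0 passed higher and 0 lower. The regularised log values gave 18 higher and 51 lower, with 1 pathway gene lower, and edgeR 1 lower. DESeq2 gave 165 higher and 335 lower, with 1 pathway gene higher and 7 lower. The number set as a covariate gave 133 higher and 204 lower, with 1 pathway gene higher and 4 lower. GC and length trends removed gave 17 higher and 20 lower, with 1 pathway gene lower. Leaving out 1 library gave 0 to 30 higher, 0 to 92 lower and 0 to 1 pathway genes lower, with each highest count without WT 6 and the pathway gene Cct6a. With label numbers as a replicate block, 0 passed higher and 0 lower. Same-numbered libraries had correlations of 0.0203 to 0.0986, none over 0.1, and not every library correlated best with its own number.

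Of the named pathway genes, sign changed in numbers 4 to 6 alone for Tubb5 (0.10), Pfdn5 (-0.41), Ttc5 (0.082), Mapre1 (0.17) and Mzt1 (0.69), and for Tubb5 with GC and length trends removed (0.103). Vbp1 was -0.069 with edgeR, -0.059 with DESeq2, -0.122 with the replicate block, -0.086 with the covariate, -0.32 in numbers 1 to 3 and -0.128 with GC and length trends removed. Leaving out 1 library, Vbp1 ran from -0.192 to 0.337 and Mzt1 from -0.261 to 0.197. The cause was not tested. Tbcd and Tbcc in Osmr-/- 6 rest on the fewest reads, with 38 for each. Leaving out 1 library, a setting chosen after the data were seen, the exact permutation p of the erythroid sum ran from 0.00794 to 0.0429 and that of the granulocyte sum from 0.00794 to 0.0476, all unadjusted.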
